A study of Mus musculus with 6 samples.

Results

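Lymphatic endothelial genes were examined in coronary endothelial cells (ECs) of embryonic mouse hearts that had or had not lost *Wt1*. The set was chosen by name, with earlier results of these data known. It holds 7 of the 55416 genes of the count table: *Prox1*, *Lyve1*, *Pdpn*, *Ccl21a*, *Gm13304*, *Mmrn1* and *Reln*. *Gm13304*, which the GENCODE vM39 annotation names *Ccl21f*, is a copy of *Ccl21a*, so the 7 entries stand for 6 distinct genes. All 7 had at least 10 counts in at least 2 libraries, the minimum for testing.

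RNA was taken from cells that were sorted by FACS for mGFP from the ventricles of E15.5 hearts, with 3 libraries from ControlΔEC embryos and 3 from Wt1KOΔEC embryos. ControlΔEC embryos carried *Wt1*+/+, *Pdgfb*-iCreERT2 and R26 mTmG/+, and Wt1KOΔEC embryos carried *Wt1* LoxP/LoxP with the same Cre and reporter alleles. Both groups received tamoxifen through the dam between E11.5 and E13.5, at 75 mg/kg, so Cre activity and tamoxifen were shared by the controls. Because *Pdgfb* regulatory sequence drove the Cre, the sorted cells were those with a history of reporter recombination by this Cre. The sources used here do not say how many embryos entered each library.

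Lymphatic ECs arise in the embryo largely from veins, and in the heart also from other sources. PROX1 is the transcription factor that sets and keeps their identity, LYVE1 and PDPN are surface glycoproteins used to recognise them, and CCL21 is the chemokine by which they draw CCR7-bearing leukocytes. MMRN1 and RELN are secreted matrix glycoproteins that lymphatic ECs make in quantity.

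The libraries held 26037324 to 44779020 counts, and 3 counts, taken as the floor of detection, made 0.0608 to 0.119 CPM (counts scaled to a common library total after correction by TMM factors); amplified reads are not independent molecules, so this floor covers counting error only. *Wt1* was at 145, 109.5 and 149 CPM in the ControlΔEC libraries and at 14.0, 18.4 and 21.3 CPM in the Wt1KOΔEC libraries (fitted log2 difference -2.91 with a standard error of 0.22, edgeR adjusted p = 0.00319). The summed level of 8 pan-endothelial genes, among them *Pecam1* and *Cdh5*, was 4539 to 5766 CPM in ControlΔEC and 4685 to 5402 CPM in Wt1KOΔEC. The ribosomal transcript *Rn18s* took 13.2 to 15.3% of the counts in ControlΔEC and 21.1 to 26.5% in Wt1KOΔEC, and its part in the values below was not tested beyond a fit without it. Levels below are CPM, given for replicates 1, 2 and 3 in that order, and fold changes are Wt1KOΔEC over ControlΔEC.

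All 7 lymphatic genes had a higher mean in Wt1KOΔEC than in ControlΔEC, with fitted log2 fold changes from 0.89 to 3.32. Standard errors (SE) are those of the edgeR fit. Their median log2 fold change was 1.17, beside -0.03 over all 16296 genes tested, of which 48.0% were higher in Wt1KOΔEC. In *Ccl21a*, *Gm13304*, *Mmrn1* and *Prox1* every Wt1KOΔEC library lay above every ControlΔEC library, which 10.3% of all genes tested did. The same 4 genes had an unadjusted p under 0.05 in the higher direction, as did 5.96% of all genes. None of the 7 passed edgeR's quasi-likelihood test after Benjamini-Hochberg adjustment over all genes (adjusted p 0.0967 to 0.776), a test that called 0.0736% of all genes differentially expressed (DEGs, adjusted p under 0.05 and absolute log2 fold change above 0.58). DESeq2, the tool of the study's methods, called those 4 members DEGs, while it called 2.2% of all genes DEGs in the higher direction. *Ccl21a* and *Gm13304* share reads, so these 4 calls rest on 3 distinct genes. In bulk RNA from sorted cells, more cells that express a gene and more RNA per cell cannot be told apart.

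**Figure D1:**
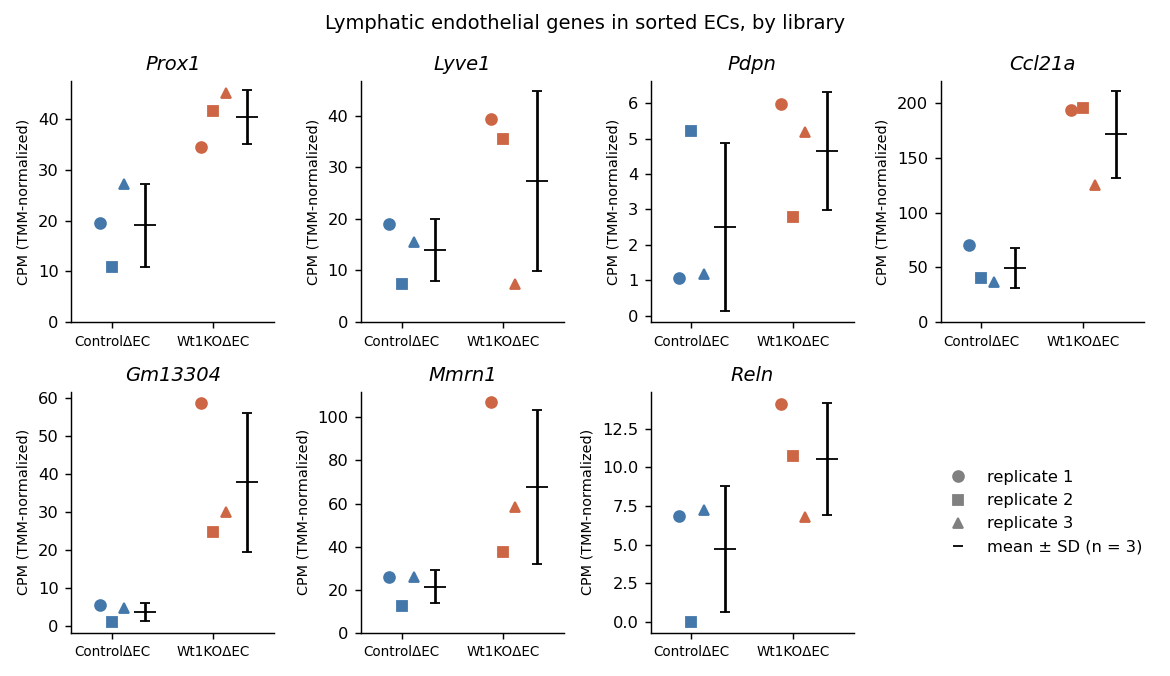
CPM (TMM-normalized, linear axis) of each lymphatic gene in the 3 ControlΔEC libraries (blue) and the 3 Wt1KOΔEC libraries (orange), with symbols for replicates and black bars for the mean ± SD (n = 3). The genotypes did not overlap for *Prox1*, *Ccl21a*, *Gm13304* and *Mmrn1*, and overlapped for *Lyve1*, *Pdpn* and *Reln*.

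Per kb of exonic length, the scale on which levels of different genes can be set side by side, *Ccl21a* was the most abundant member, at 50.6 ± 18.8 CPM per kb in ControlΔEC and 176 ± 41.0 CPM per kb in Wt1KOΔEC (SD, n = 3). In ControlΔEC it was followed by *Gm13304* at 4.53 ± 2.78, *Mmrn1* at 3.64 ± 1.32, *Lyve1* at 3.37 ± 1.44 and *Prox1* at 2.13 ± 0.912 CPM per kb, and the ranges of mean ± SD of neighbours in this order overlapped. *Pdpn*, at 0.503 ± 0.478 CPM per kb, and *Reln*, at 0.198 ± 0.172 CPM per kb, were lowest, and their ranges overlapped too. The order was the same in Wt1KOΔEC, with *Gm13304* at 45.2 ± 21.9, *Mmrn1* at 11.52 ± 6.11, *Lyve1* at 6.59 ± 4.18, *Prox1* at 4.50 ± 0.597, *Pdpn* at 0.938 ± 0.337 and *Reln* at 0.444 ± 0.154 CPM per kb. There the ranges of *Mmrn1* and *Lyve1*, and of *Lyve1* and *Prox1*, again overlapped.

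*Prox1* (ENSMUSG00000010175.14, chromosome 1, 189850232 to 189904637, minus strand, GRCm39) encodes the homeodomain protein without which lymphatic ECs do not form. It was at 19.4, 10.8 and 27.1 CPM in ControlΔEC and at 34.5, 41.5 and 45.01 CPM in Wt1KOΔEC. The genotypes did not overlap, although the lowest Wt1KOΔEC library was only 1.27 times the highest ControlΔEC library. The means were 19.1 ± 8.18 and 40.4 ± 5.35 CPM (SD, n = 3), and the fitted log2 fold change was 1.08 (SE 0.32, edgeR adjusted p = 0.235 and DESeq2 adjusted p = 0.0388). An antisense gene, *Prox1os*, overlaps *Prox1* and shares 8.22% of its 51-base windows, and it was listed at 0 counts in every library, and these libraries do not keep the strand that would tell the genes apart.

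The surface glycoproteins varied among libraries of the same genotype, and both overlapped between the genotypes. *Lyve1* (ENSMUSG00000030787.5, chromosome 7, 110448585 to 110462460, minus strand) encodes a hyaluronan receptor that is also made by a class of tissue macrophages. It was at 19.1, 7.40 and 15.6 CPM in ControlΔEC and at 39.4, 35.4 and 7.44 CPM in Wt1KOΔEC. Wt1KOΔEC replicates 1 and 2 lay above all ControlΔEC libraries, and replicate 3 lay at the level of the lowest of them. The log2 fold change of *Lyve1* was 0.97 (SE 0.57, edgeR adjusted p = 0.532), and between 0.61 and 1.42 with single libraries left out.

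*Pdpn* (ENSMUSG00000028583.15, chromosome 4, 142990871 to 143026143, minus strand) encodes podoplanin, a ligand of the platelet receptor CLEC2 that mesothelium and epicardium also make. It was low throughout, at 1.07, 5.23 and 1.18 CPM in ControlΔEC and at 5.99, 2.78 and 5.18 CPM in Wt1KOΔEC. ControlΔEC replicate 2 stood apart from the other controls and overlapped the Wt1KOΔEC libraries. With all libraries the log2 fold change of *Pdpn* was 0.89 (SE 0.76, edgeR adjusted p = 0.71), and without ControlΔEC replicate 2 it was 2.04.

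*Ccl21a* (ENSMUSG00000094686.2, chromosome 4, 42772859 to 42773995, minus strand) and *Gm13304* (ENSMUSG00000073878.4, chromosome 4, 42114817 to 42115917, plus strand) lie among 5 near-identical chemokine genes of the table that span 870.4 kb of chromosome 4 in GRCm39. The upstream sequence shows how alike these copies are. The 249 bases before the annotated starts are given below from RefSeq (GRCm38.p6), read 5′ to 3′ on each gene's strand, for the 3 copies with counts in all 6 libraries, with capitals at the positions that differ between them. They were taken from chr4:42773992-42774240 on the minus strand for *Ccl21a*, from chr4:42114537-42114785 on the plus strand for *Gm13304* and from chr4:41903363-41903611 on the plus strand for *Ccl21d*.
Ccl21a: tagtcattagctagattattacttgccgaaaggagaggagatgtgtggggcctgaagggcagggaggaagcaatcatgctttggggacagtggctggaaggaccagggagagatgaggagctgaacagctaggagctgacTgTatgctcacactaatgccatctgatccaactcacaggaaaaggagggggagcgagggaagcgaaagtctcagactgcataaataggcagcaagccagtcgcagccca
Gm13304: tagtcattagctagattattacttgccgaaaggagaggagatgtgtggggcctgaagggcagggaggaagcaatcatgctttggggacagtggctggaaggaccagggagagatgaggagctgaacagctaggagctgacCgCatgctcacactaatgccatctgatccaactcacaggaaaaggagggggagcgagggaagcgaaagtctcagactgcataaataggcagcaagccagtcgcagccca
Ccl21d: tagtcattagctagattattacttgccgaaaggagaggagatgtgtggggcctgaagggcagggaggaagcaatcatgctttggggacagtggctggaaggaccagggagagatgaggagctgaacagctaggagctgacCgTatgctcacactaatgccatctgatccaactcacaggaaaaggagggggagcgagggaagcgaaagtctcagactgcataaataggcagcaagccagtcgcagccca
Counted from the 5′ end, *Gm13304* differed from *Ccl21a* by T141C and T143C, an identity of 99.2%, and *Ccl21d* differed from *Ccl21a* by T141C alone, an identity of 99.6%.

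The transcripts were alike as well. Of the 51-base windows of *Gm13304* transcripts in GENCODE vM39, 100% also occurred in transcripts of another gene and 73.1% occurred in *Ccl21a*, whereas 50.3% of the windows of *Ccl21a* occurred in another gene. The reads were 51 bases long and paired, so a single read could not place a fragment in *Gm13304*, and the division of counts between the copies was an estimate of RSEM.

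*Ccl21a* was at 70.2, 40.4 and 37.0 CPM in ControlΔEC and at 193, 195 and 125 CPM in Wt1KOΔEC. The lowest Wt1KOΔEC library was 1.78 times the highest ControlΔEC library. The log2 fold change of *Ccl21a* was 1.80 (SE 0.28, unadjusted p = 0.000125, edgeR adjusted p = 0.0967 and DESeq2 adjusted p = 6.44e-07).

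*Gm13304* was at 5.45, 1.13 and 4.78 CPM in ControlΔEC and at 58.7, 24.8 and 29.9 CPM in Wt1KOΔEC. Of the 7 members it had the widest gap between the genotypes, the lowest Wt1KOΔEC library being 4.55 times the highest ControlΔEC library. Its log2 fold change was 3.32 (SE 0.58, edgeR adjusted p = 0.108 and DESeq2 adjusted p = 9.42e-07).

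A sum over copies does not depend on how reads were divided within it, although that of *Ccl21a* and *Gm13304* still depends on the division with the other 3 copies. *Ccl21a* plus *Gm13304* came to 75.7, 41.5 and 41.8 CPM in ControlΔEC and to 252, 220 and 155 CPM in Wt1KOΔEC. The genotypes did not overlap, and the log2 fold change of the sum was 1.98 (SE 0.28, unadjusted p = 6.04e-05, edgeR adjusted p = 0.061 and DESeq2 adjusted p = 9.38e-09). All 5 copies together, a sum added after the data had been seen, came to 95.4, 55.0 and 47.0 CPM in ControlΔEC and to 269.8, 281 and 169.7 CPM in Wt1KOΔEC. Their log2 fold change was 1.87 (SE 0.30, edgeR adjusted p = 0.102 and DESeq2 adjusted p = 5.93e-07), close to that of *Ccl21a* by itself.

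Within the 5 copies, the shares of counts moved from library to library. *Ccl21a* held 73.7, 73.5 and 78.8% in ControlΔEC and 71.7, 69.5 and 73.9% in Wt1KOΔEC. *Gm13304* held 5.72, 2.06 and 10.2% in ControlΔEC and 21.8, 8.82 and 17.6% in Wt1KOΔEC, so that the genotypes overlapped in this share although they did not overlap in its level. *Ccl21d* was at 19.7, 13.5 and 1.56 CPM in ControlΔEC and at 17.8, 61.1 and 14.4 CPM in Wt1KOΔEC, and the genotypes overlapped (log2 fold change 1.42, SE 0.80, edgeR adjusted p = 0.512). The remaining copies, *Ccl21b* and *Gm10591*, had counts in ControlΔEC replicate 3 only, with the same 52 counts in each.

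**Figure D2:**
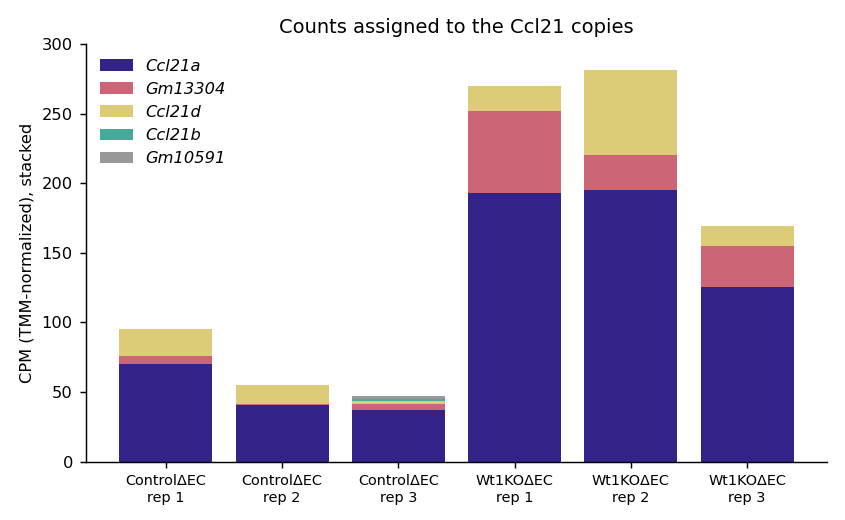
TMM-normalized CPM (linear axis from 0) assigned to each of the 5 *Ccl21* copies, stacked for each library. The stacks reached 47.0 to 95.4 CPM in ControlΔEC and 169.7 to 281 CPM in Wt1KOΔEC, and *Ccl21a* (dark blue) was the major part of every stack.

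The secreted glycoproteins differed in level and in spread. *Mmrn1* (ENSMUSG00000054641.11, chromosome 6, 60901960 to 60966362, plus strand) encodes multimerin 1, which platelets and megakaryocytes store as well. It was at 25.96, 12.4 and 25.8 CPM in ControlΔEC and at 107, 37.4 and 58.2 CPM in Wt1KOΔEC. The genotypes did not overlap, and Wt1KOΔEC replicate 1 was 2.87 times replicate 2. The log2 fold change of *Mmrn1* was 1.66 (SE 0.41, edgeR adjusted p = 0.191 and DESeq2 adjusted p = 0.00419), and none of its 51-base windows occurred in another gene.

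*Reln* (ENSMUSG00000042453.15, chromosome 5, 22089452 to 22549700, minus strand) encodes reelin, best known from neuronal migration and also secreted by lymphatic ECs. It was at 6.88, 0 and 7.25 CPM in ControlΔEC and at 14.1, 10.7 and 6.80 CPM in Wt1KOΔEC. ControlΔEC replicate 2 had no *Reln* count (counting error alone allows up to 0.0608 CPM there), while the other controls overlapped Wt1KOΔEC replicate 3. The log2 fold change was 1.17 (SE 1.21, edgeR adjusted p = 0.776) with all libraries and 0.58 without ControlΔEC replicate 2. With limma-voom in place of edgeR it was 4.25 (limma adjusted p = 0.316).

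Across the members, the same libraries tended to be at the ends of each genotype. ControlΔEC replicate 2 was the lowest control for 5 of 7 members, and Wt1KOΔEC replicate 1 was the highest Wt1KOΔEC library for 5 of 7. Leaving out any of the 6 libraries left all 7 fold changes above 0, with 4 or 5 members at an unadjusted p under 0.05 and 0 called by edgeR's quasi-likelihood test.

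**Figure D3:**
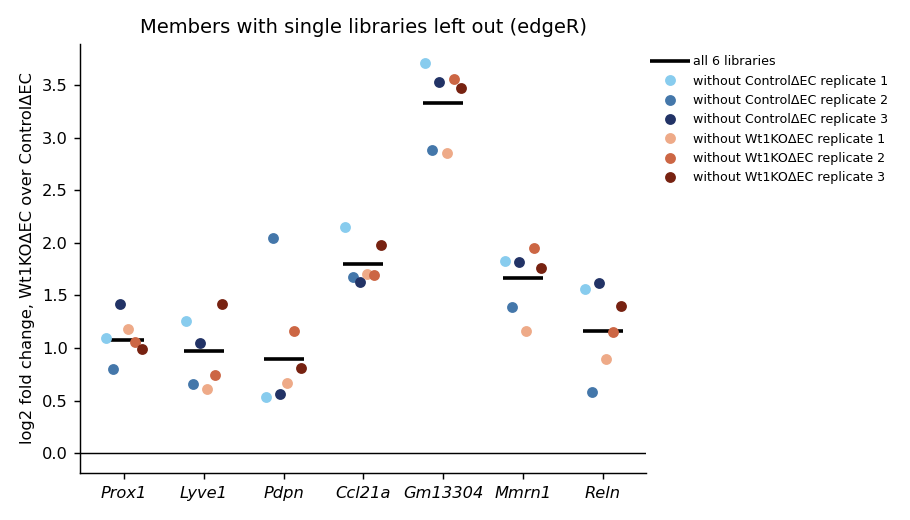
Log2 fold change of each member (edgeR) with all 6 libraries (black bars) and after single libraries were left out (points, blue for ControlΔEC and orange for Wt1KOΔEC libraries left out). All points lie above 0, between 0.53 for *Pdpn* without ControlΔEC replicate 1 and 3.70 for *Gm13304* without ControlΔEC replicate 1.

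The wider lymphatic programme was described with 5 lists of 53 genes, none of them members, of which 41 were tested. Of these 41, 26 were higher and 15 lower in Wt1KOΔEC, with a median log2 fold change of 0.25. The quasi-likelihood test of edgeR called none of the 41 (lowest adjusted p 0.17), and 8 higher and 3 lower genes had an unadjusted p under 0.05, where 5.96 and 7.12% of all genes did. DESeq2 called 1 of the 41, *Nts*, in the higher direction.

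Among 9 transcription factors of lymphatic specification and identity, 8 were higher and 1 lower, with a median log2 fold change of 0.26, and a single gene passed an unadjusted p of 0.05. That was *Nr2f2*, which encodes the venous factor COUP-TFII that cooperates with PROX1. It was at 8.29, 10.7 and 8.84 CPM in ControlΔEC and at 21.8, 13.6 and 16.8 CPM in Wt1KOΔEC. The genotypes did not overlap (log2 fold change 0.91, SE 0.29, edgeR adjusted p = 0.258). The valve factor *Foxc2* also did not overlap between the genotypes (log2 fold change 0.45, edgeR adjusted p = 0.551). The libraries of *Hhex* overlapped, at a log2 fold change of 0.26, as did those of *Sox18*, an inducer of *Prox1* that was added after its values were seen, at 0.08.

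The VEGF-C axis, through which lymphatic ECs receive their growth signal, was split, with 3 of its 6 genes higher, 3 lower and a median log2 fold change of 0.03. *Flt4*, which encodes the VEGF-C receptor VEGFR3, was at 230.2, 259.7 and 223 CPM in ControlΔEC and at 290.1, 282 and 219 CPM in Wt1KOΔEC. The libraries overlapped (log2 fold change 0.15, SE 0.16, edgeR adjusted p = 0.79). Its co-receptor *Nrp2* was lower in every Wt1KOΔEC library, at 177, 175 and 208 against 173, 134 and 163 CPM (log2 fold change -0.25, SE 0.16, edgeR adjusted p = 0.589). The ligand *Vegfc* had a log2 fold change of -0.08 and its protease *Adamts3*, near 1 CPM, had 0.32. *Ccbe1*, a cofactor of VEGF-C processing that is named because it alone of this list had an unadjusted p under 0.05, was at 0.737, 0 and 1.18 CPM in ControlΔEC and at or under the floor in all Wt1KOΔEC libraries.

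Binding partners and relatives of the members gave 4 genes higher and 6 lower of 10 tested, with a median log2 fold change of -0.19. *Emilin1*, which encodes an elastic fibre glycoprotein of the MMRN1 family, was at 182, 184 and 93.7 CPM in ControlΔEC and at 228, 336 and 239 CPM in Wt1KOΔEC (log2 fold change 0.81, SE 0.27, edgeR adjusted p = 0.273). Its relative *Mmrn2* had a log2 fold change of 0.44 (edgeR adjusted p = 0.348). On the lower side, *Cd44*, a hyaluronan receptor related to LYVE1, was at 108, 109 and 126 CPM in ControlΔEC and at 98.2, 86.7 and 83.9 CPM in Wt1KOΔEC (log2 fold change -0.35, SE 0.15, edgeR adjusted p = 0.365). The reelin receptor *Vldlr* was below 3 CPM in every library and lower in each Wt1KOΔEC library (log2 fold change -1.66, SE 0.80, edgeR adjusted p = 0.428). The libraries of the chemokine decoy receptor *Ackr2*, at -0.44, and of the PDPN receptor *Clec1b*, at 0.05 on the log2 scale, overlapped.

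Of the 12 other genes of lymphatic vessels and valves, 8 were higher and 4 lower, with a median log2 fold change of 0.50, and 5 higher and 1 lower had an unadjusted p under 0.05. *Nts*, which encodes the peptide neurotensin, was at 46.1, 18.2 and 32.0 CPM in ControlΔEC and at 69.0, 80.1 and 88.5 CPM in Wt1KOΔEC. It did not overlap between the genotypes (log2 fold change 1.302, SE 0.31, edgeR adjusted p = 0.17 and DESeq2 adjusted p = 0.00407). *Calcrl*, the receptor through which adrenomedullin acts on lymphatic vessels, was at 91.5, 48.1 and 69.6 CPM in ControlΔEC and at 95.3, 125 and 141 CPM in Wt1KOΔEC (log2 fold change 0.79, SE 0.25, edgeR adjusted p = 0.252). *Klhl4* had a log2 fold change of 0.56 (SE 0.14, edgeR adjusted p = 0.198 and DESeq2 adjusted p = 0.00125), under the fold change limit for a DEG. *Stab2* and *Thy1*, named after their values were seen, were higher in every Wt1KOΔEC library but did not exceed 5.11 CPM in any. *Fxyd6* was the gene lower at an unadjusted p under 0.05, from 104 to 111 CPM in ControlΔEC to between 48.7 and 89.8 CPM in Wt1KOΔEC (log2 fold change -0.63, SE 0.22, edgeR adjusted p = 0.28). *Efnb2*, a gene of arteries and lymphatic valves, was lower in every Wt1KOΔEC library (log2 fold change -0.33, edgeR adjusted p = 0.395), and *Fgfr3* overlapped at -0.23.

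Of the 14 listed copies and neighbours of *Ccl21a*, 4 were tested, 3 of them higher, with a median log2 fold change of 0.79. Beside *Ccl21d*, given above, the neighbour *Il11ra1*, which encodes a cytokine receptor and not a chemokine, was at 52.1, 92.2 and 36.7 CPM in ControlΔEC and at 69.7, 79.2 and 52.7 CPM in Wt1KOΔEC. Its libraries overlapped (log2 fold change 0.16, edgeR adjusted p = 0.912).

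**Figure D4:**
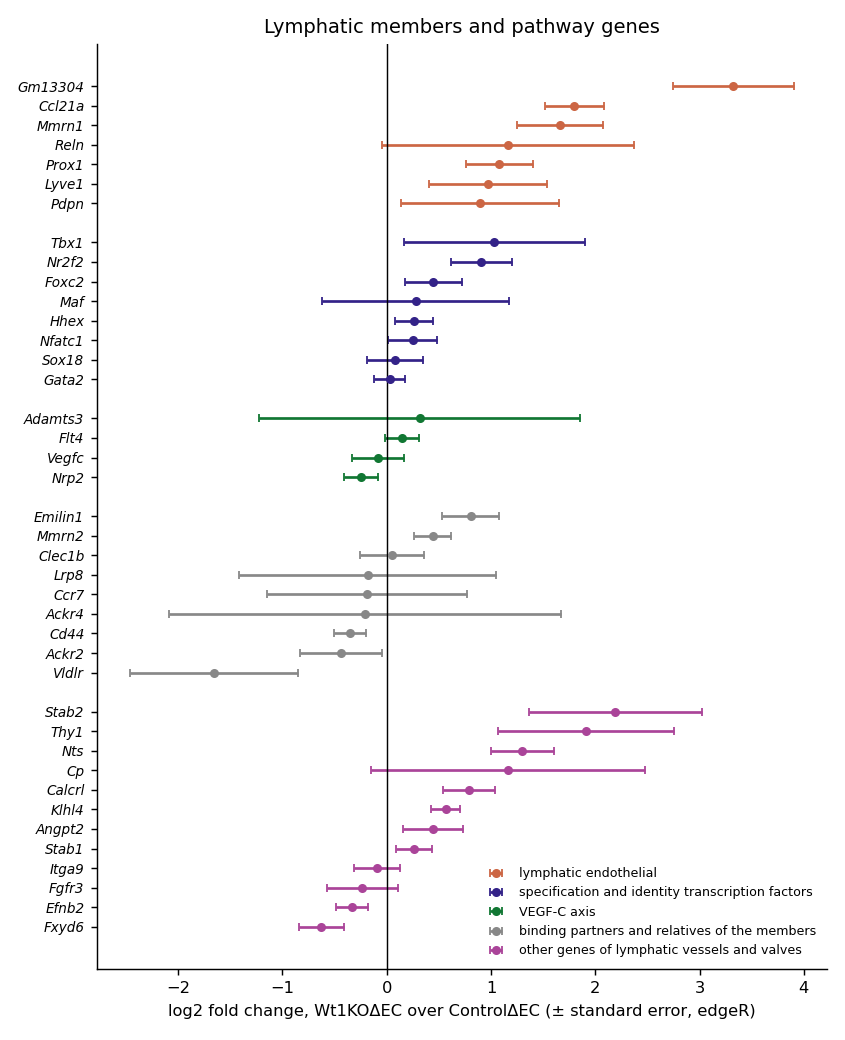
Log2 fold change of Wt1KOΔEC over ControlΔEC (edgeR, ± standard error) for the 7 members (orange) and for tested genes of 4 pathway lists with a mean of at least 1 CPM (other colours, 1 gene not drawn). The members run from 0.89 to 3.32, *Nts* lies at 1.302, and *Flt4*, at 0.15, lies near 0.

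Several members are known from other cell types, so the summed levels of those types' marker lists were set beside them. The 14 macrophage genes, of which 13 were lower and 1 higher (median log2 fold change -0.93), summed to 454, 984 and 332 CPM in ControlΔEC and to 359.6, 322 and 249 CPM in Wt1KOΔEC, led by *Csf1r*. *Lyve1* was lowest among the controls in replicate 2, where this sum was highest, and lowest among the Wt1KOΔEC libraries in replicate 3, where it was lowest. The 9 megakaryocyte and platelet genes, of which 3 were higher and 6 lower (median -0.30), summed to 45.1, 67.3 and 46.8 CPM in ControlΔEC and to 33.7, 70.5 and 18.2 CPM in Wt1KOΔEC, while *Mmrn1* was highest within each genotype in replicate 1. The part of either cell type in the levels of *Lyve1* and *Mmrn1* was not tested.

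The 11 epicardial genes, of which 9 were higher and 2 lower (median 1.26), summed to 55.7, 48.5 and 48.4 CPM in ControlΔEC and to 89.6, 76.0 and 101 CPM in Wt1KOΔEC, led by *Clu*. This list moved with the genotype as the mean of *Pdpn* did, although the libraries of *Pdpn* overlapped. Among the controls *Pdpn* was highest in replicate 2 and the epicardial sum in replicate 1. Among the Wt1KOΔEC libraries both were lowest in replicate 2. The part of epicardial RNA in the level of *Pdpn* was not tested. The 10 cardiomyocyte genes, of which 8 of 9 tested were higher (median 0.21), summed to 196, 269.8 and 219 CPM in ControlΔEC and to 349, 166 and 356 CPM in Wt1KOΔEC. *Nkx2-5* was listed at 0 counts in all ControlΔEC libraries and at 0, 9 and 23 counts in the Wt1KOΔEC libraries. *Prox1*, which cardiomyocytes also express, was at 41.5 CPM in Wt1KOΔEC replicate 2, the library with the lowest cardiomyocyte sum, and at 45.01 CPM in Wt1KOΔEC replicate 3, the library with the highest. In Wt1KOΔEC replicate 1 *Prox1* was at 34.5 CPM. Among the controls *Prox1* was lowest in replicate 2, at 10.8 CPM, where the cardiomyocyte sum was highest. The part of cardiomyocyte RNA in the level of *Prox1* was not tested.

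Other lists moved with the genotype as well, and their part in the members' values was not tested. All 6 endocardial genes were higher (median log2 fold change 1.08), with sums of 141 to 208 CPM in ControlΔEC and 310 to 376 CPM in Wt1KOΔEC. Of 8 fibroblast genes 6 were higher (median 0.93, 589 to 870 against 1158 to 1368 CPM), and *Col1a1* was a DEG (log2 fold change 1.34, edgeR adjusted p = 0.0441). DESeq2 called 3 of these 8 fibroblast genes and 2 of the 11 epicardial genes higher, and 0 of either list lower. Of 6 mural genes tested 5 were lower (median -0.78; 176 to 364 against 141 to 160 CPM). Of 6 venous endothelial genes 4 were higher (median 0.33; 1036 to 1122 against 1157 to 1376 CPM), and of 7 erythroid genes 5 were lower (median -0.53; 6567 to 14340 against 5104 to 8490 CPM). The 7 lymphatic members summed to 148, 77.4 and 119 CPM in ControlΔEC and to 453, 348 and 278 CPM in Wt1KOΔEC.

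**Figure D5:**
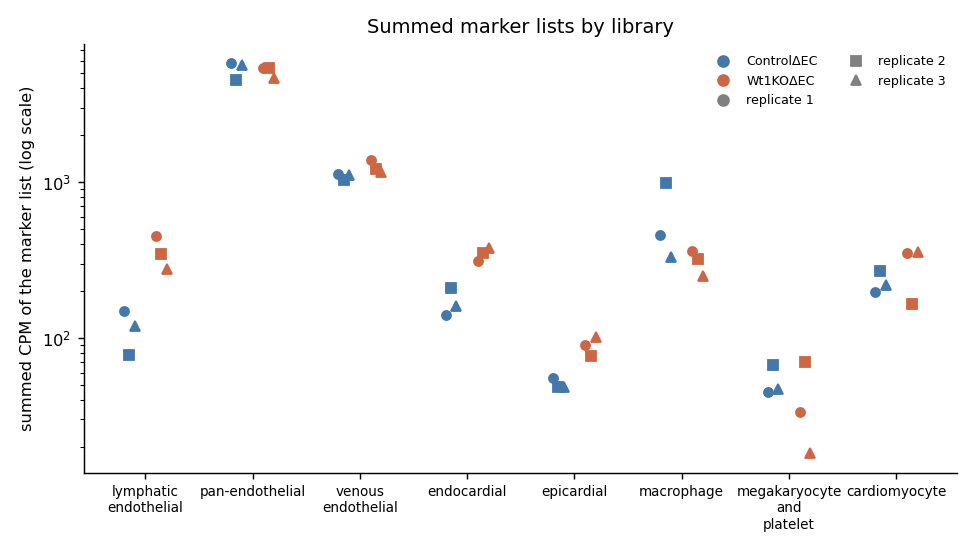
Summed CPM of 8 marker lists (log axis) in each library, with colours for genotypes and symbols for replicates. The lymphatic, epicardial, endocardial and venous sums did not overlap between the genotypes, and the pan-endothelial, macrophage, megakaryocyte and cardiomyocyte sums did.

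The promoters were also searched, on both strands, for the letters GCGGGGGCG and GCGTGGGNG, which resemble sites that zinc fingers of the WT1 and EGR type bind and do not overlap each other. Of the members, 6 had a RefSeq entry of 300 bases around the start. GCGGGGGCG occurred in *Reln* alone of these, and in 2.91% of all 32851 promoters, while GCGTGGGNG occurred in no member and in 1.90% of all promoters. No match says only that these letters are not in that window.

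The genes whose pattern over the 6 libraries was nearest to each member were found by the root mean square difference of centred log2 CPM, among genes with a mean of at least 10 CPM. For *Prox1* these were *Ccn2* (0.162) and *Nek2* (0.165), for *Ccl21a* they were *Fam167b* (0.248) and *Tnfsf9* (0.25), and for *Mmrn1* they were *Cxcl10* (0.258) and *Coasy* (0.373). For *Lyve1* the nearest were the pseudogene *Ywhaq-ps3* (0.251) and *Gphn* (0.458), and for *Pdpn* they were *Trub2* (0.389) and *Brip1* (0.393). *Gm13304* had no close match, its nearest genes being *Rps7-ps3* (0.709) and *Fndc4* (0.787). No other member was the nearest or next nearest gene of any member, but *Pdpn* and *Reln*, with means under 10 CPM, were not among the candidates. No nearest genes were sought for *Reln* because of its library without counts.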

How the data were processed

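The authors made SMART-seq2 libraries with 12 cycles of amplification, sequenced them in pairs of 51-base reads, and deposited expected counts per gene from RSEM 1.3.0 after alignment with STAR 2.7.8a, without normalization. The study's methods name GRCm39 with GENCODE vM27, whereas the submitters' processing notes list GRCm38, and the counts carry no coordinates, so positions were taken from GENCODE vM39 (GRCm39). Expected counts, deposited as whole numbers, were compared between 3 ControlΔEC and 3 Wt1KOΔEC libraries in R 4.3.3 with edgeR 4.0.16 (TMM, quasi-likelihood test, Benjamini-Hochberg adjustment over 16296 genes). Each standard error is the size of the fitted log2 difference divided by the root of its F statistic. The labels call the libraries biological replicates.

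Alternatives were DESeq2 1.42.0 at its defaults, limma-voom (limma 3.58.1), edgeR's likelihood ratio test, other normalizations and filters, a fit without *Rn18s* and mitochondrial genes, a replicate block, offsets for length and GC content (splines with 5 degrees of freedom, 16238 genes), and each library left out. The steps were also run on simulated counts that had the same dispersion for every gene. That run does not show how the tests behave for the more variable members. The members and all gene lists were chosen with earlier results of these data known. Genes named are the members, *Wt1*, up to 3 pathway genes in each direction with the smallest p and a mean of at least 1 CPM, and the 2 nearest patterns of each member; 1 pathway gene under this rule is not reported here. Of the pathway lists, 48 of 53 symbols were in the table. Amino acid sequences were not used here.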

Additional observations from a re-analysis of the deposited data

How the results depend on the processing

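All 7 members stayed higher in Wt1KOΔEC under every alternative that gave a value, but the size for *Reln*, 1.17 in the main comparison, was 4.25 with limma-voom, 2.00 with the replicate block and 2.13 with the block and length and GC offsets, none of them called. With DESeq2 4 members were called, with log2 fold changes of 1.08 for *Prox1*, 1.795 for *Ccl21a*, 3.32 for *Gm13304* and 1.66 for *Mmrn1*, and 1.98 for *Ccl21a* plus *Gm13304*; 1 pathway gene and 767 genes in all were called. The likelihood ratio test called 3 members (*Ccl21a* 1.80, *Gm13304* 3.32, *Mmrn1* 1.66, the sum 1.98) and 432 genes, and no filter on low counts called 3 (1.80, 3.33 and 1.66, the sum 1.98) and 296 genes. A minimum of 10 counts in every library, which left *Reln* without a value, called 2 (*Ccl21a* 1.79, *Gm13304* 3.31, the sum 1.97) and 113 genes, and an unadjusted p passed 4 members. With limma-voom the sum was called, at 2.01. Length and GC offsets gave 5 DEGs among all genes. With single libraries left out, 2 to 37 genes were DEGs. Library size only moved the median of all genes by -0.15 on the log2 scale. Samples with the same replicate number hardly deviated together (r = 0.0566, 0.0045 and 0.0201). Of the ControlΔEC libraries only replicate 1 correlated best with its own number, and of the Wt1KOΔEC libraries replicates 1 and 3 did. The replicate block gave 5 DEGs among all genes and the sum of *Ccl21a* and *Gm13304* at 2.01 (adjusted p = 0.0281, edgeR), while the sum of all 5 copies, at 1.90, was not called (adjusted p = 0.0566, edgeR), and the replicate block with length and GC offsets gave 7 DEGs, with *Gm13304* called at 3.30 (adjusted p = 0.0414, edgeR), 1 member. The causes of these shifts were not tested. The submitters' library identifiers carry a different prefix in each genotype, and the labels do not say what the prefixes stand for. With 3 libraries a genotype and no batch named in the labels, a batch that follows the genotypes cannot be told apart from them.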
